A study of Rattus norvegicus with 30 samples.

Results

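MHC class II presentation genes were followed through the lungs of rats with severe acute pancreatitis (SAP), a disease of the pancreas in which the lung is often injured as well. The 8 genes were taken by symbol from the deposited tables: RT1-Ba, RT1-Bb, RT1-Da, RT1-Db1, RT1-DMa, RT1-DMb, Cd74 and Ciita. All 8 were found among the 22914 genes with counts, and all 8 passed the filter on low counts that left 15934 genes for testing. RNA-seq of lung tissue was available for 30 male Sprague Dawley rats, 8 weeks old, with 3 rats in each of 10 groups. The study asked how dexamethasone (DEX) and emodin change RNA levels in the injured lung.

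Rats of the Sham groups had only their pancreas moved at surgery. Rats of the Con groups received sterile saline into the biliopancreatic duct. In the SAP, DEX and Emo groups, a 5.0% solution of the bile salt sodium taurocholate, which damages the pancreas, was infused instead. DEX, a synthetic glucocorticoid, was given into a vein at 10 mg/kg, and emodin, an anthraquinone from rhubarb, was given into the stomach. Both were given 2 and 12 hours after the operation, so rats killed at 6 hours had received the first dose only. The labels give the emodin dose as 10 mg/kg in one field and as 40 mg/kg in another. The other groups received the vehicles (saline into the vein, carboxymethylcellulose into the stomach), and every group was fasted, anaesthetised and sampled at 6 or 24 hours (Sham-6h, Sham-24h and so on). Neither drug was given to rats without SAP, so each drug effect is an effect in taurocholate-treated rats. The pulmonary artery was rinsed with saline before the lung was taken, and whole tissue was used.

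Class II molecules carry peptides of proteins that a cell has taken up to its surface, where CD4 T cells read them. Each is a pair of an alpha and a beta chain: RT1-Ba with RT1-Bb form the rat B molecule, the counterpart of human HLA-DQ, and RT1-Da with RT1-Db1 form the D molecule, the counterpart of HLA-DR. Cd74, the invariant chain, holds and escorts the new pair, and RT1-DMa with RT1-DMb form DM, which exchanges the remnant of the invariant chain for a peptide. Ciita, the class II transactivator, binds no DNA itself and is recruited to the class II promoters by factors that sit on their X and Y boxes, among them RFX and NF-Y. In lung the genes are typical of dendritic cells, B cells and macrophages, and alveolar type 2 cells carry them as well. Glucocorticoids are known to lower class II expression in antigen-presenting cells.

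The promoter stretches of the chain genes are shown because these letters are where Ciita's partners are known to sit. A promoter of 300 bases (250 before the gene's start and 50 after it) was held for 6 of the 8 genes in the RefSeq table of build GRCr8, which is not the build of the expression tables; RT1-DMb and Ciita were not in it. On the gene's own strand, 5′ to 3′, the 5 RT1 promoters read as follows, with 2 runs of letters in capitals: GNNACNG, as in the middle of an X box, and TGATTGG, which holds the reversed CCAAT of a Y box.
RT1-Ba: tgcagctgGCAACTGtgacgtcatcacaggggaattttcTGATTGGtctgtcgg
RT1-Bb: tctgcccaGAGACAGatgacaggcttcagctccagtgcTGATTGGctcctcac
RT1-Da: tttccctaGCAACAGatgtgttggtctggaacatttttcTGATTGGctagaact
RT1-Db1: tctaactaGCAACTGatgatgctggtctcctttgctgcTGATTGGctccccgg
RT1-DMa: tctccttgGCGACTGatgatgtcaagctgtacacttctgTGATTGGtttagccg

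All 5 lie on chromosome 20: RT1-Ba at chr20:4576973-4577026 (plus strand), RT1-Bb at chr20:4604167-4604219 (minus), RT1-Da at chr20:4515325-4515378 (plus), RT1-Db1 at chr20:4560230-4560282 (minus) and RT1-DMa at chr20:4712387-4712440 (minus). The 2 runs were 23 bases apart in both beta chain promoters (RT1-Bb and RT1-Db1) and 24 bases apart in the 3 alpha chain promoters. TGATTGG was found on either strand in 7.06% of 33469 RefSeq promoters of this length, and GNNACNG followed by TGATTGG, with 15 to 30 bases between, in 0.457%. This pair was written after these promoters had been read, so its presence in all 5 is a description. The Cd74 promoter held no TGATTGG and 1 ATTGG, the short form that 37.5% of promoters hold, on its reverse strand. GNACA and TGTNC with 3 bases between, a strict form of the palindrome that the glucocorticoid receptor binds, were searched on both strands and were in none of the 6 promoters and in 0.439% of all. No match says only that these letters are not in this window.

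Cd74 (ENSRNOG00000018735, chromosome 18) was by far the most abundant of the 8 per unit of length, with a mean of 1320 FPKM (fragments per kilobase of transcript, scaled to library size) over 30 libraries, higher than 99.8% of the genes listed. RT1-Da (ENSRNOG00000032844) averaged 177 FPKM, RT1-Ba (ENSRNOG00000000451) 71.9, RT1-Db1 (ENSRNOG00000033215) 55.6 and RT1-Bb (ENSRNOG00000032708) 39.4. Ciita (ENSRNOG00000002659, chromosome 10), a regulator, was low at 2.79 FPKM, although 121 to 1147 reads per library were counted on it. RT1-DMa (ENSRNOG00000047864) and RT1-DMb (ENSRNOG00000051002) were close to nothing, at 0.453 and 0.648 FPKM, from 11 to 40 and 21 to 89 reads per library. The DM chains thus reached a median of 0.00329 of the summed B and D chains within a library.

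Such low DM values are uncertain. The annotation also holds an M alpha chain-like gene (LOC100909593) and an M beta 1 chain-like gene (LOC100909630), which carried 0 to 5 and 0 to 13 reads, and reads that fit more than 1 place were discarded by the authors. The B and D chain genes are highly polymorphic, the rats are outbred, and reads were mapped to a single reference with 2 mismatches allowed. Their part in the differences between rats was not tested. In the authors' mapping summary, the share of uniquely mapped reads was higher in every Sham and Con library than in any SAP, DEX or Emo library. Comparisons of SAP, DEX or Emo groups with Sham or Con groups carry this difference, and its part was not tested. Total reads on genes ranged from 16813949 (SAP-6h replicate 3) to 34692306 (SAP-6h replicate 2) per library, and over all genes the variance between rats of a group was 36.2 to 199 times the counting variance. The lung label was checked on surfactant and other alveolar type 2 genes, whose 8 members summed to 25200 to 48200 FPKM in every library.

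**Figure D1:**
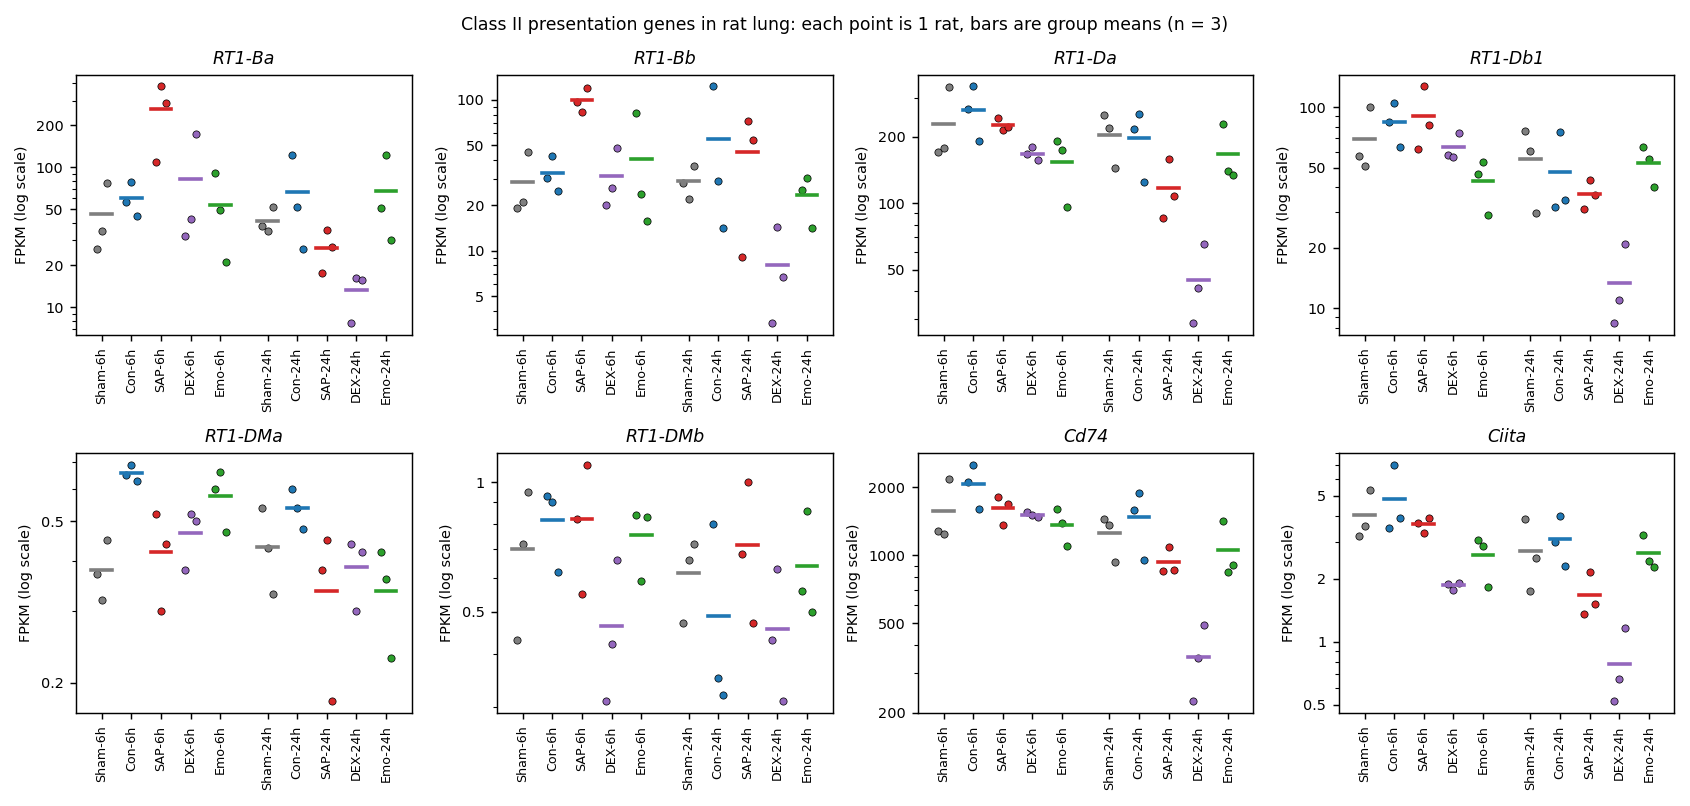
Level of each of the 8 genes in FPKM (vertical axis, log scale) in the 10 groups (horizontal axis). Each point is 1 rat and each bar a group mean (n = 3). The 3 DEX-24h rats lie lowest for Cd74, RT1-Da, RT1-Db1, RT1-Ba and Ciita, and the 3 SAP-6h rats lie high for RT1-Ba and RT1-Bb.

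Cd74, RT1-Da and Ciita shared the 2 lowest groups and the highest. DEX-24h was lowest, SAP-24h was next and Con-6h was highest, with means of 355, 933 and 2080 FPKM for Cd74 (SD 133, 135 and 458, n = 3 each), 45.1, 117 and 265 for RT1-Da (SD 18.4, 37.8 and 73.6), and 0.78, 1.68 and 4.84 for Ciita (SD 0.336, 0.431 and 1.94). RT1-Db1 shared the lower end (13.4 ± 6.51 in DEX-24h and 37 ± 6.13 in SAP-24h), but SAP-6h was its highest group (90.3 ± 33.5). For these 4 genes and for RT1-Ba, the DEX-24h rats did not overlap with the next group, SAP-24h. All other neighbours in the order of the 10 groups overlapped for these 5 genes, and for RT1-Bb, RT1-DMa and RT1-DMb every pair of neighbours did. The B chains had another top: SAP-6h led with 259 ± 137 FPKM for RT1-Ba and 100 ± 18.3 for RT1-Bb.

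Lungs of DEX-24h rats held less class II RNA than those of untreated SAP-24h rats, the comparison that asks what DEX changes in established SAP. Cd74, RT1-Da, RT1-Db1, Ciita and RT1-Bb fell, and RT1-Ba, RT1-DMa and RT1-DMb did not pass the test. A gene was called when its adjusted p was under 0.05 in edgeR's quasi-likelihood test (Benjamini-Hochberg over 15934 genes) and its change was at least 2-fold. By that rule 5 of 8 members were down-regulated and 0 up-regulated, where 2.55% of all genes tested were down-regulated. The median log2 fold change was −1.33 over the members and 0.00 over all genes tested. In whole tissue, fewer cells that carry these RNAs and less RNA per cell cannot be told apart.

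Cd74, the invariant chain, stood at 847.61, 1088.77 and 863.72 FPKM in the SAP-24h rats and at 225.64, 349.56 and 490.77 in the DEX-24h rats. The lowest SAP-24h rat was thus well above the highest DEX-24h rat. Cd74 fell by 1.48 on the log2 scale (SE 0.29), or 2.8-fold, with an adjusted p of 0.00289 in edgeR.

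Both chains of the D molecule fell. RT1-Da stood at 85.4, 158.97 and 107.37 FPKM in SAP-24h against 28.76, 41.37 and 65.06 in DEX-24h, and fell by 1.46 (SE 0.34, adjusted p = 0.0105 in edgeR). RT1-Db1 stood at 31.2, 43.42 and 36.45 FPKM against 8.45, 10.92 and 20.75, and fell by 1.56 (SE 0.38, adjusted p = 0.0143). Neither chain overlapped between the groups. The ratio of RT1-Da to RT1-Db1 within a library differed by 0.151 on the log2 scale between the groups (exact permutation p = 0.4, two-sided). Since 0.1 is the smallest p that 3 against 3 allows, this test could not have passed and does not show that the chains changed alike.

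The B molecule was less even. RT1-Bb stood at 9.13, 72.95 and 53.85 FPKM in SAP-24h and at 3.32, 14.25 and 6.65 in DEX-24h. SAP-24h replicate 1 lay below DEX-24h replicate 2, so the groups overlapped, although RT1-Bb fell by 2.54 in the fit (SE 0.74, adjusted p = 0.0375 in edgeR). Without DEX-24h replicate 2 this was −3.26, over the 6 libraries left out in turn it ran from −3.26 to −2.01, and it passed in 6 of 11 alternatives. RT1-Ba stood at 17.58, 35.49 and 27.03 FPKM against 7.74, 16.3 and 15.74. These RT1-Ba values did not overlap, but the estimate of −1.09 (SE 0.65) did not pass (adjusted p = 0.328).

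Ciita stood at 1.36, 2.17 and 1.51 FPKM in SAP-24h and at 0.52, 0.66 and 1.16 in DEX-24h. Every DEX-24h rat was below every SAP-24h rat, and Ciita fell by 1.20 (SE 0.31, adjusted p = 0.0211 in edgeR). Of the 8 genes, 5 had all DEX-24h rats below all SAP-24h rats in FPKM, where 8.65% of the genes tested did. The DM chains gave −0.74 (SE 0.40, adjusted p = 0.271) for RT1-DMb and 0.10 (SE 0.31, adjusted p = 0.872) for RT1-DMa, from few reads.

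This count rests on 3 rats a group and on the spread borrowed from the other groups. With the 6 libraries fitted alone it was 0, with adjusted p from 0.0556 for Cd74 to 0.175 for RT1-Bb in edgeR, and it was 1 (Cd74) without DEX-24h replicate 1 and 3 without DEX-24h replicate 2 or SAP-24h replicate 2.

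**Figure D2:**
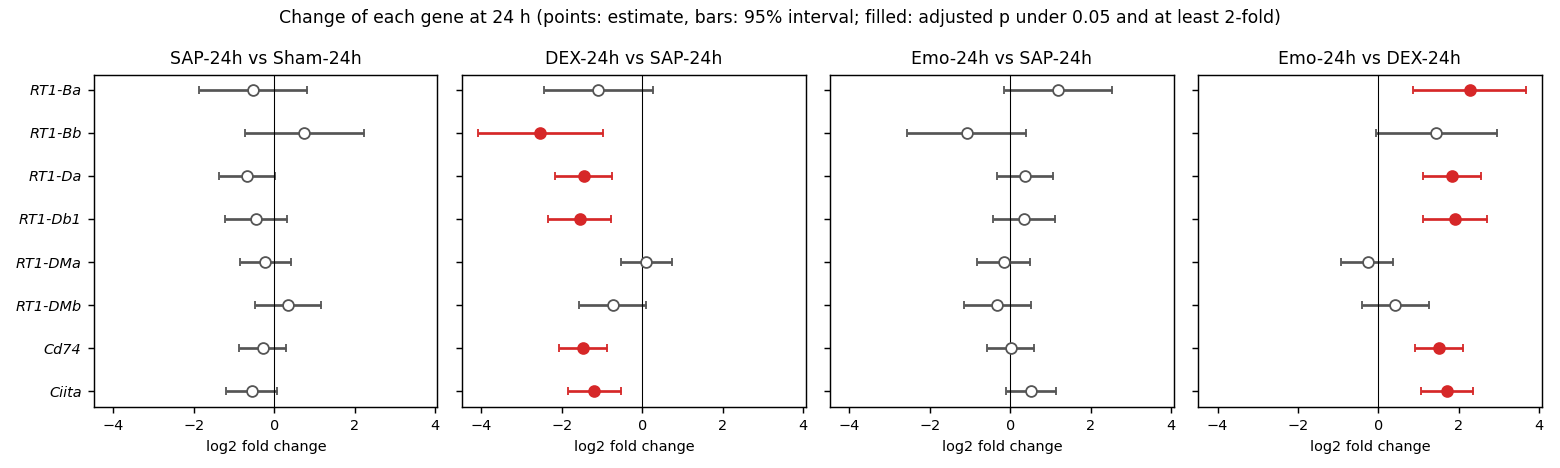
Log2 fold change (horizontal axis) of each gene in 4 comparisons at 24 hours. Points are edgeR estimates, bars their 95% intervals from the standard error and 20 residual degrees of freedom, and filled red points passed an adjusted p under 0.05 with at least 2-fold change: 0 of 8 for SAP against Sham, 5 for DEX against SAP, 0 for emodin against SAP and 5 for emodin against DEX.

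Set against the sham-operated rats, RT1-Da, RT1-Db1, Cd74 and Ciita were lower in the DEX-24h lungs as well. RT1-Da fell by 2.14 (SE 0.35, adjusted p = 0.000718), RT1-Db1 by 2.01 (SE 0.38, adjusted p = 0.00247), Cd74 by 1.78 (SE 0.29, adjusted p = 0.000726) and Ciita by 1.76 (SE 0.31, adjusted p = 0.00142), all in edgeR. These 4 of 8 down-regulated members stand beside 3.16% of all genes tested. The B chains gave −1.61 (RT1-Ba, adjusted p = 0.155) and −1.79 (RT1-Bb, adjusted p = 0.152) and did not pass. With each library left out in turn, RT1-Ba ran from −1.81 to −1.34 and RT1-Bb from −2.51 to −1.41. In Sham-24h, Cd74 stood at 1446.37, 1366.76 and 937.93 FPKM and Ciita at 3.89, 1.75 and 2.52, all above the DEX-24h rats. The 4 calls held without each of the 6 libraries in turn and with the 6 fitted alone, where RT1-Ba was called too. This comparison and the others with DEX-24h use the same 3 DEX-24h rats, so they are not independent of each other. The comparison with Sham-24h also carries the difference in the share of uniquely mapped reads.

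No class II gene passed the test for SAP by itself at 24 hours. None of the 8 was called in SAP-24h against Sham-24h, where 5.00% of genes tested were called; DESeq2 called 0 as well, and 0 had an unadjusted p under 0.05. The largest estimates were 0.75 for RT1-Bb (95% interval −0.72 to 2.22) and −0.68 for RT1-Da (−1.38 to 0.02). For Cd74 the interval, −0.88 to 0.29, leaves out a fall of 2-fold. Against the saline-infused Con-24h rats (6.91% of genes tested called) the count was again 0 in both tools, with 1 member (Ciita, −0.76, SE 0.30) at an unadjusted p under 0.05. Sham-24h against Con-24h gave 0 called members in edgeR and DESeq2, beside 1.00% of genes tested, and 0 members had an unadjusted p under 0.05.

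With emodin, Cd74, RT1-Da, RT1-Db1 and Ciita stood at mean levels between those of SAP-24h and Sham-24h rats. No member was called in Emo-24h against SAP-24h (3.19% of genes tested were called), by edgeR or by DESeq2, and 0 had an unadjusted p under 0.05. Cd74 stood at 1418.41, 847.27 and 905.05 FPKM in Emo-24h, which is a log2 difference of 0.02 from SAP-24h (95% interval −0.57 to 0.60). RT1-Ba (1.19) and RT1-Bb (−1.09) pointed opposite ways, with intervals of −0.16 to 2.54 and −2.57 to 0.39, and the RT1-Ba estimate was 0.44 without Emo-24h replicate 2. Against Sham-24h, no member and 0% of genes tested were called in edgeR, and DESeq2 called 0 members. An unadjusted p under 0.05 was seen for 0 members and for 3.00% of genes tested.

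DEX-24h and Emo-24h rats were then compared directly. RT1-Ba, RT1-Da, RT1-Db1, Cd74 and Ciita, 5 of 8 members, were higher with emodin than with DEX, where 3.82% of all genes tested were up-regulated. RT1-Da stood at 228.03, 140.25 and 134.2 FPKM in Emo-24h and RT1-Db1 at 63.11, 54.99 and 40.16, all above the DEX-24h rats. The log2 differences were 1.82 for RT1-Da (SE 0.34, adjusted p = 0.00185), 1.91 for RT1-Db1 (SE 0.38, adjusted p = 0.00306), 1.50 for Cd74 (SE 0.29, adjusted p = 0.00201) and 1.70 for Ciita (SE 0.31, adjusted p = 0.00155) in edgeR. RT1-Ba was 2.27 higher (SE 0.67, adjusted p = 0.0348), a call lost without any single DEX-24h library (adjusted p 0.0775 to 0.132) or without Emo-24h replicate 1 or 2 (0.0629 and 0.242). Without Emo-24h replicate 2 the RT1-Ba difference was 1.50. Its Emo-24h values of 51.25, 122.17 and 29.99 FPKM were widely spread. RT1-Bb differed by 1.44 (SE 0.72, adjusted p = 0.253) and did not pass. The RT1-Bb difference ran from 1.07 (without DEX-24h replicate 1) to 2.16 (without DEX-24h replicate 2).

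At 6 hours, after the first dose of DEX, Ciita was the one member called against sham rats. Ciita stood at 1.9, 1.78 and 1.91 FPKM in DEX-6h, a narrow range below all 3 SAP-6h rats (3.71, 3.34 and 3.93) and all 3 Sham-6h rats (3.22, 3.57 and 5.35). Against Sham-6h Ciita fell by 1.08 (SE 0.30, adjusted p = 0.0268 in edgeR), where 1.73% of genes tested were down-regulated; the call was lost without any DEX-6h library or Sham-6h replicate 3. Against SAP-6h the estimate was −0.98 (SE 0.30) and did not pass (adjusted p = 0.133). For Cd74 the DEX-6h values of 1549.18, 1509.58 and 1476.89 FPKM lay within the range of SAP-6h (1807.57, 1360.49 and 1684.9). The difference was −0.10 (95% interval −0.69 to 0.48).

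Most members were lower in the later DEX rats than in the earlier ones. DEX-24h against DEX-6h gave 5 of 8 members down-regulated, beside 3.91% of genes tested: RT1-Ba (−2.59, SE 0.68), RT1-Db1 (−2.22, SE 0.39), Cd74 (−2.08, SE 0.29), RT1-Da (−1.88, SE 0.34) and Ciita (−1.24, SE 0.31), with adjusted p from 6.09e-05 for Cd74 to 0.00774 for RT1-Ba in edgeR. Without DEX-6h replicate 3 the RT1-Ba estimate was −1.53 and its call was lost (adjusted p = 0.0961). RT1-Bb gave −1.92 (SE 0.73) and did not pass (adjusted p = 0.0547). With each library left out in turn, RT1-Bb ran from −2.64 to −1.53. Whether the effect of DEX against SAP differed between the times was tested as an interaction, and 0 members passed in edgeR (0.138% of genes tested did, and 2 members had an unadjusted p under 0.05) and 1 (Cd74) in DESeq2. In edgeR Cd74 gave −1.38 (SE 0.40, unadjusted p = 0.00211, adjusted p = 0.139). In untreated SAP rats, SAP-24h against SAP-6h gave 2 of 8 members down-regulated (1.74% of genes tested), RT1-Ba with −3.17 (SE 0.69, adjusted p = 0.0108) and Ciita with −1.03 (SE 0.31, adjusted p = 0.0466). Emo-24h against Emo-6h gave 0 members by this rule (9.41% of genes tested), with RT1-DMa at −0.81 and an adjusted p of 0.0452, and 0 in DESeq2. The Ciita call in SAP-24h against SAP-6h passed in 3 of 11 alternatives. It was lost without SAP-24h replicate 1 or 3 and without any single SAP-6h library. It was also lost with the compared groups alone (adjusted p = 0.0648 in edgeR), with a replicate block and without a filter.

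The B chains of SAP-6h rats stood apart. RT1-Ba measured 109.53, 378.97 and 289.39 FPKM in SAP-6h, against 26.01, 35.35 and 77.17 in Sham-6h and 56.83, 79.0 and 45.01 in Con-6h. RT1-Bb measured 97.2, 83.4 and 119.75 FPKM, against 19.1, 21.0 and 45.05 in Sham-6h and 30.44, 42.38 and 25.02 in Con-6h. All 3 SAP-6h rats were above all 6 controls for both chains. RT1-Da of the D molecule measured 243.56, 213.43 and 221.71 FPKM, within the Sham-6h range of 170.26 to 336.66. RT1-Db1 measured 61.72, 127.16 and 82.04 FPKM, with SAP-6h replicate 2 above the Sham-6h range of 50.92 to 100.09.

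In the test across genes neither B chain passed. RT1-Ba was 2.51 higher than in Sham-6h (95% interval 1.11 to 3.91, adjusted p = 0.108 in edgeR) and RT1-Bb 1.86 (0.35 to 3.37, adjusted p = 0.258), so 0 of 8 members were called, where 0.220% of genes tested were. These 2 members had an unadjusted p under 0.05. Over the 6 libraries left out in turn, RT1-Ba ran from 2.16 to 3.13 and RT1-Bb from 1.64 to 2.39, each highest without Sham-6h replicate 3. Both also lay above all Sham-6h rats in FPKM, which 5.58% of genes tested did by that measure alone. DESeq2 called RT1-Ba (1 member). Against Con-6h, 0 members were called, where 0.163% of genes were. RT1-Bb was called in that comparison when the 6 libraries were fitted alone.

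A ratio taken within a library does not depend on its scaling. The summed D chains were 5.04, 4.06 and 3.57 times the summed B chains in Sham-6h and 4.02, 3.65 and 3.63 times in Con-6h, but 1.48, 0.737 and 0.742 times in SAP-6h. In 2 SAP-6h rats the usual order of D above B was thus turned over. The mean difference between SAP-6h and Sham-6h was −2.17 on the log2 scale, with an exact permutation p of 0.1, the smallest that 3 against 3 allows. Cd74 over the B and D chains differed by −0.834 (exact permutation p = 0.1).

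High RT1-Ba was also seen in single rats of other groups. DEX-6h replicate 3 (174.27 FPKM of RT1-Ba, D over B ratio 1.04), Emo-6h replicate 1 (91.5 FPKM, ratio 1.37), Con-24h replicate 1 (122.25 FPKM, ratio 1.01) and Emo-24h replicate 2 (122.17 FPKM, ratio 1.28) stood above the rest of their groups. With 1 dose given, RT1-Ba gave −1.67 in DEX-6h against SAP-6h (SE 0.65, adjusted p = 0.268 in edgeR) and −2.25 in Emo-6h (SE 0.67, adjusted p = 0.219), and 0 of 8 members were called in either comparison by edgeR or DESeq2, where 0.515% and 0.0251% of genes tested were. In DEX-6h, 3 members lay below all SAP-6h rats in FPKM (RT1-Bb, RT1-Da and Ciita), where 8.74% of genes tested did. In Emo-6h, 5 members lay below all SAP-6h rats in FPKM (RT1-Ba, RT1-Bb, RT1-Da, RT1-Db1 and Ciita), where 6.48% of genes tested did. Without DEX-6h replicate 3 the RT1-Ba estimate against SAP-6h was −2.73, and over the 6 libraries left out in turn it ran from −2.73 to −1.29. In Emo-6h against SAP-6h the RT1-Ba estimate ran from −2.89 (without Emo-6h replicate 1) to −1.87 (without Emo-6h replicate 3). The unadjusted p was under 0.05 for 4 members in DEX-6h and for 2 in Emo-6h. The share of all genes tested at this unadjusted threshold was taken for Emo-24h against Sham-24h only, so these counts have no background. No member was called by edgeR or DESeq2 in the 5 comparisons not described elsewhere: Sham-6h against Con-6h (0% of genes tested called), Emo-6h against DEX-6h (1.41%), Emo-6h against Sham-6h (0.477%), Sham-24h against Sham-6h (0.257%) and Con-24h against Con-6h (0.00628%). In these, 1 member in each of Sham-6h against Con-6h and Con-24h against Con-6h had an unadjusted p under 0.05.

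Within the B molecule the chains also parted. RT1-Ba was below RT1-Bb in SAP-24h replicates 2 and 3, at ratios of 0.486 and 0.502, and level with it in Con-24h replicate 1 (0.993), whereas the median over 30 libraries was 1.75 and the highest value 4.54. The log2 difference of RT1-Ba between emodin and SAP was −2.25 at 6 hours and 1.19 at 24 hours, neither of which passed. The interaction passed narrowly (3.44, SE 0.93, adjusted p = 0.0434 in edgeR), where 1.68% of genes tested were called. No member was called for the interaction of SAP against Sham with time in edgeR or DESeq2 (0.0314% of genes tested, 1 member at an unadjusted p under 0.05). The RT1-Ba call for emodin was lost with a replicate block, with the 4 groups fitted alone and without Emo-24h replicate 1 or 2, Emo-6h replicate 1 or 3, SAP-24h replicate 1 or 3, or SAP-6h replicate 2 or 3 (adjusted p 0.0581 to 0.131).

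**Figure D3:**
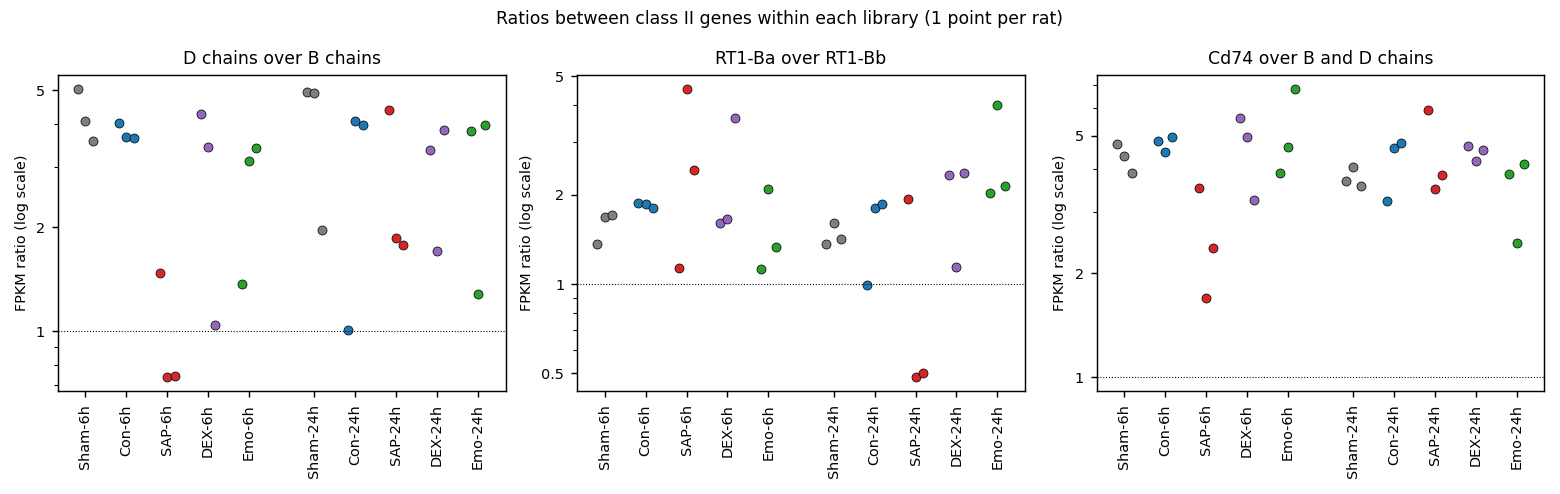
Ratios of FPKM within each library (vertical axis, log scale) by group (horizontal axis); each point is 1 rat and the dotted line marks equal levels. D chains over B chains fall to between 0.737 and 1.48 in SAP-6h, and RT1-Ba over RT1-Bb is 0.486 and 0.502 in 2 SAP-24h rats and 0.993 in 1 Con-24h rat.

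The levels of Ciita and of the genes it controls were compared rat by rat, as log2(FPKM + 1). Over 30 libraries Ciita went with RT1-Da (Pearson r = 0.899, Spearman rho = 0.84), Cd74 (0.854 and 0.768) and RT1-Db1 (0.823 and 0.762). Each of these r had a permutation p of 1e-05, the smallest that 100000 permutations give, and an adjusted p of 2.33e-05 over the 7 relations; the rho had the same values. The B chains followed less closely, with r = 0.609 and rho = 0.654 for RT1-Ba (p = 0.00041 and 0.00015, adjusted 0.000717 and 0.000262) and r = 0.579 and rho = 0.516 for RT1-Bb (p = 0.00095 and 0.00407, adjusted 0.00133 and 0.0057), all by permutation. For the DM chains r was 0.447 (RT1-DMa, permutation p = 0.0127, adjusted 0.0149; rho 0.433, p = 0.0175, adjusted 0.0204) and 0.395 (RT1-DMb, p = 0.0308, adjusted 0.0308; rho 0.36, p = 0.0501, adjusted 0.0501).

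Without the 2 libraries farthest from the median of Ciita, r was 0.848 for RT1-Da, 0.77 for Cd74, 0.706 for RT1-Db1, 0.475 for RT1-Ba, 0.436 for RT1-Bb, 0.447 for RT1-DMa and 0.394 for RT1-DMb. For RT1-Da, Cd74 and RT1-Db1 the relation was not only one between groups. In deviations from the group means, r was 0.789 for RT1-Da, 0.739 for Cd74 and 0.638 for RT1-Db1 (adjusted permutation p from 3.5e-05 to 0.000373). It was 0.42 for RT1-Ba, 0.453 for RT1-Bb and 0.488 for RT1-DMa (adjusted permutation p = 0.0245, 0.0168 and 0.0109). RT1-DMb gave 0.119 and did not pass (adjusted permutation p = 0.532). The deviations were permuted freely over all libraries, although those of a group are tied by its mean, so these p-values are too small. They do not decide whether RT1-Ba, RT1-Bb and RT1-DMa go with Ciita within groups. Within the 15 libraries at 6 hours r was 0.83 for RT1-Da and 0.7 for Cd74. There RT1-Ba gave 0.263 and RT1-Bb 0.352, and neither passed (adjusted permutation p = 0.382 and 0.274). Within the 15 at 24 hours r was 0.934 for RT1-Da, 0.908 for Cd74, 0.773 for RT1-Ba and 0.612 for RT1-Bb. The DEX-24h rats hold the lowest Ciita values, and without them r was 0.826 for RT1-Da, 0.734 for Cd74, 0.654 for RT1-Db1, 0.413 for RT1-Ba and 0.341 for RT1-Bb, the last of which no longer passed (adjusted permutation p = 0.0955).

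**Figure D4:**
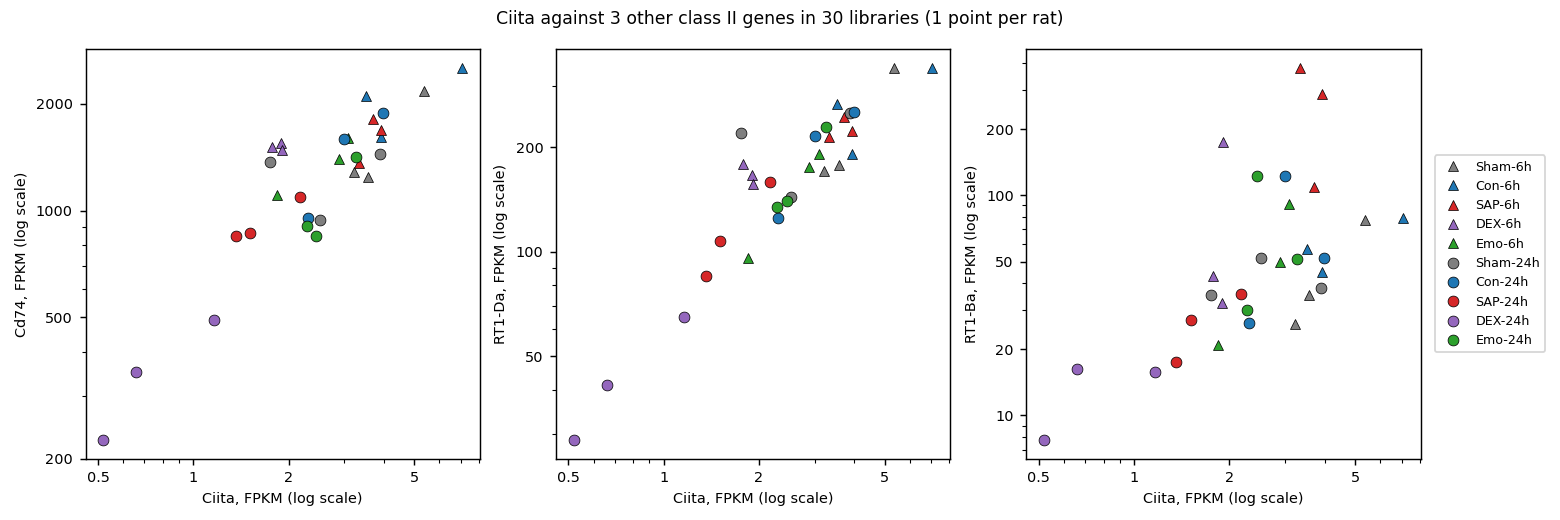
Cd74, RT1-Da and RT1-Ba (vertical axes, FPKM, log scale) against Ciita (horizontal axis, FPKM, log scale) in 30 libraries; triangles are rats at 6 hours, circles rats at 24 hours. Cd74 and RT1-Da rise with Ciita (r = 0.854 and 0.899), and the 3 DEX-24h rats are lowest on all axes, while 2 SAP-6h rats stand above the others for RT1-Ba.

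Among the members themselves the tightest pair was RT1-Da with Cd74 (r = 0.96 over 30 libraries and 0.951 in deviations from the group means). RT1-Da with RT1-Db1 gave 0.917 and 0.766, and RT1-Ba with RT1-Bb 0.835 and 0.769. The 4 pairs of a B with a D chain gave 0.584 to 0.712 and 0.202 to 0.549, and RT1-DMa with RT1-DMb gave 0.247 and 0.329. The r of Cd74 was 0.96 and 0.893 with the D chains and 0.631 and 0.653 with the B chains. The genes outside the 8 whose levels were most like the members' mean were Ccl21, a chemokine of lymphoid stroma (r = 0.887 over 30 libraries), Ctse, an endosomal protease (0.881), Neurl3 (0.877), Gckr (0.873), Gm2a (0.871), Cd4, the co-receptor for class II (0.863), Acp5 (0.856), Trpv2 (0.852), Wdfy4, used in cross-presentation by dendritic cells (0.843), and Cd7 (0.843), ranked among 12386 genes. These r are descriptions over libraries that share groups and depth.

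Other genes of the pathway were read from lists. Of the 13 tested genes of class II accessory function and processing, RT1-DOb alone was called in DEX-24h against SAP-24h, where it fell by 2.10 (adjusted p = 0.0097 in edgeR). RT1-DOb and RT1-DOa form DO, the inhibitor of DM. RT1-DOa gave −1.21 (adjusted p = 0.0701) against SAP-24h but fell by 2.07 against Sham-24h (adjusted p = 0.00331). RT1-DOa stood at 0.52, 0.77 and 1.31 FPKM in DEX-24h and at 0.97, 2.47 and 2.27 in SAP-24h. Ctss, the cathepsin that trims the invariant chain, gave 0.05 against SAP-24h (adjusted p = 0.94), with 83.24 to 157.61 FPKM in DEX-24h. The cathepsin Ctsl rose against Sham-24h in SAP-24h (1.03, adjusted p = 0.00942) and in DEX-24h (1.03, adjusted p = 0.0108). Against DEX-24h, Emo-24h was higher in RT1-DOa (1.88, adjusted p = 0.00573), RT1-DOb (1.96, adjusted p = 0.0121) and the low-level beta chain copy RT1-Db2 (4.21, adjusted p = 0.00332). RT1-Db2 had a mean of 0.171 FPKM over the 30 libraries, from 0 to 42 reads per library, so the size of its difference is uncertain.

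Factors that act at class II promoters were read next to Ciita. Rfx5, a subunit of RFX, gave −0.01 in DEX-24h against SAP-24h (adjusted p = 0.982 in edgeR). Of 17 tested genes of class II transcription and interferon gamma signalling, 2 fell in that comparison: Spi1, which encodes the myeloid and B cell factor PU.1 (−1.16, adjusted p = 0.00255), and Irf1, an interferon-induced factor (adjusted p = 0.0267). Irf1 (1.24, adjusted p = 0.00651) and Irf8 (1.56, adjusted p = 0.00702) were higher in Emo-24h than in DEX-24h. Ifng, the cytokine that induces Ciita in many cells, had too few reads to be tested and stood at 0.06 FPKM or less in every Sham-24h, SAP-24h and DEX-24h rat, at 0.26, 0.17 and 0.06 in Emo-24h and at 0.28 in Con-24h replicate 1. Class I presentation is a separate pathway for peptides from within the cell. It had 0 of 22 genes called in DEX-24h against SAP-24h, with 3 at an unadjusted p under 0.05. Of these 22 estimates, 20 were below 0, with a median of −0.50. The class I transactivator Nlrc5 gave −1.21 (adjusted p = 0.249) in that comparison and was 2.13 higher in Emo-24h than in DEX-24h (adjusted p = 0.0361).

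Markers of cells that carry class II molecules moved in the same comparison. In DEX-24h against SAP-24h, 5 of 11 B cell markers fell, among them Bank1 (−2.04, adjusted p = 6.11e-05), Cd79a (−1.47, adjusted p = 0.0252) and Blk (−1.33, adjusted p = 0.026), and the list's summed level went from 36.8 to 50.1 FPKM in SAP-24h down to 13.8 to 26.4 in DEX-24h. Of 11 tested dendritic cell markers 5 fell, including Itgax (−2.91, adjusted p = 0.000664), Batf3 (−2.22, adjusted p = 0.00217), Ccr7 (−2.57, adjusted p = 0.0024) and Clec9a (−1.72, adjusted p = 0.0275), with sums of 37.2 to 55.6 and 26.4 to 32.8 FPKM. Both lists thus had lower sums in every DEX-24h rat than in any SAP-24h rat. Estimates below 0 were seen for all 11 B cell markers and for 9 of the 11 dendritic cell markers. Of all genes tested, 2.55% were down-regulated. The median log2 fold changes of the B cell and dendritic cell lists, −1.77 and −2.16, were below that of the members. Neither of the defining markers Ms4a1 and Flt3 was at 0 in DEX-24h.

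Macrophage and monocyte markers fell in 2 of 15 (Cx3cr1, −2.15, adjusted p = 0.0137, and Itgam, −1.53, adjusted p = 0.015, in edgeR). Their sums were 24300 to 31600 FPKM in SAP-24h and 17800 to 21500 in DEX-24h. Of the 15 estimates, 10 were below 0, with a median of −0.39. Neutrophil markers fell in 2 of 12 (Ngp, −5.04, adjusted p = 0.014, and Camp, −2.5, adjusted p = 0.017, in edgeR). Their sums were 4710 to 16600 FPKM in SAP-24h and 1100 to 3050 in DEX-24h. All 12 neutrophil estimates were below 0, with a median of −1.86, also below that of the members. No T cell marker was called in edgeR and 1 of 9 had an unadjusted p under 0.05, but all 9 estimates were below 0, with a median of −0.77 and sums of 14.5 to 20.4 FPKM in SAP-24h and 7.17 to 15.7 in DEX-24h. No alveolar type 1, alveolar type 2 or endothelial marker was called, with 2 of 7, 2 of 8 and 2 of 6 at an unadjusted p under 0.05 and medians of 0.35, −0.17 and 0.13. The part of these cells in the class II result was not tested.

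T cells read the class II molecules, and their markers were set beside the members. Against Sham-24h, 6 of 9 fell in SAP-24h (Cd3d by 2.00, adjusted p = 0.0101; Cd3e by 2.04, adjusted p = 0.0127), with sums of 54.6 to 79.0 FPKM in Sham-24h and 14.5 to 20.4 in SAP-24h, where 0 of 8 class II members were called. B cell markers had 0 of 11 called in that comparison, with 2 at an unadjusted p under 0.05. Dendritic cell markers had 2 of 11 down-regulated and a median of −0.52, with 8 of 11 estimates below 0. An unadjusted p under 0.05 was seen for 9 of the 11 dendritic cell markers, so not all of these were falls. In DEX-24h against Sham-24h, all 9 T cell markers, 8 of 11 B cell markers and 8 of 11 dendritic cell markers fell, and in Emo-24h against DEX-24h 9 of 9, 9 of 11 and 7 of 11 were higher.

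**Figure D5:**
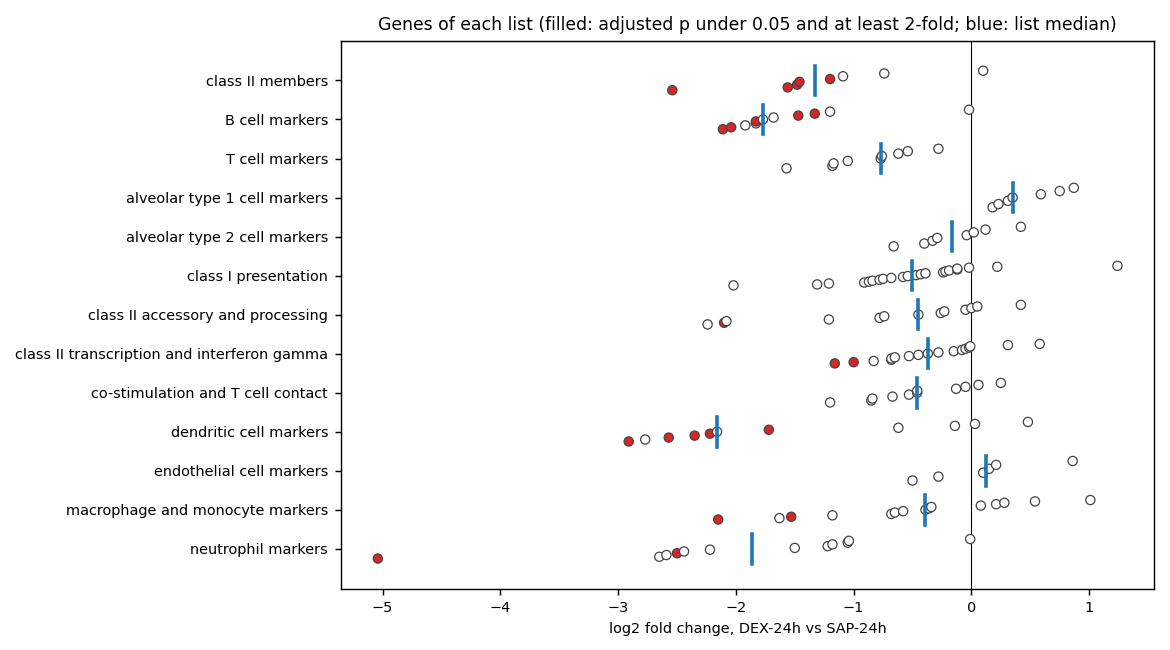
Log2 fold change of DEX-24h against SAP-24h (horizontal axis) for each tested gene of the class II members and of 12 lists (vertical axis). Filled red points passed an adjusted p under 0.05 with at least 2-fold change. Blue bars are medians: −1.33 for the members, −1.77 for B cell, −2.16 for dendritic cell, −1.86 for neutrophil, −0.39 for macrophage and monocyte and −0.50 for class I genes.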

How the data were processed

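Lung RNA from 30 rats was sequenced by the authors as paired reads from directional libraries of polyadenylated RNA. Alignment by the authors used TopHat2 on rat_ensembl_v6 from Ensembl with up to 2 mismatches; the authors discarded multi-mapped reads and counted the remaining reads per gene. The authors deposited these raw counts for 22914 genes and FPKM values, rounded to 2 decimals, for 22907; the counting program is not given in the sources used here. Counts were tested in R 4.3.3 with edgeR 4.0.16 (filterByExpr, minimum count 10; TMM; quasi-likelihood model of 10 groups, 20 residual degrees of freedom), over 21 comparisons and 3 interactions with time, with Benjamini-Hochberg adjustment over 15934 genes. FPKM was used for levels, within-library ratios (no pseudocount) and correlations (pseudocount 1, 100000 permutations), in Python 3.11.15 with scipy 1.17.1. Intervals use the standard error and 20 degrees of freedom. In counts simulated for DEX-24h vs SAP-24h over 15934 genes, 90 of 100 genes changed by 1.5 and 100 of 100 changed by 2.5 on the log2 scale were called, with 12 unchanged genes. The simulated spread followed the trend over all genes, the changed genes were well counted, and all other groups were equal. This rate was therefore not measured for the members' own spread or for the few reads of the DM chains.

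Members and lists were chosen with earlier results of these data known. All 8 members are named, with list genes that were called (at most 4 per list and comparison, smallest adjusted p) and Rfx5, Nlrc5, RT1-DOa, RT1-DOb, Ctss and Ifng in any case, and the 10 genes most like the members' mean (symbol present, mean of at least 1 FPKM). Some list genes that this rule names are not reported here. The Ctsl, Irf8, RT1-Db2, Spi1 and Irf1 values follow that rule. List genes not matched were Trac, RT1-CE1, RT1-Hb, Marchf1, Marchf8, Icosl, Pecam1 and Ear2; 1 class I symbol has 2 rows, and Spib stands in the B cell and the transcription lists. Promoters came from RefSeq (GRCr8). Alternatives were RLE scaling, DESeq2 1.42.0, no filter, no fold limit, the compared groups alone, a replicate block, other pseudocounts, log2 CPM (prior count 2) and each library left out in turn.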

Additional observations from a re-analysis of the deposited data

Results flagged for a closer look

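The effect of emodin on RT1-Ba differed between 6 and 24 hours. The test of that difference gave 3.44 on the log2 scale (SE 0.93, adjusted p = 0.0434 in edgeR, from the model of all 10 groups and 30 libraries, over 15934 genes). With the 12 libraries of the 4 groups fitted alone the adjusted p was 0.128. RT1-Ba was 20.95 to 91.5 FPKM in Emo-6h against 109.53 to 378.97 in SAP-6h, and 29.99 to 122.17 in Emo-24h against 17.58 to 35.49 in SAP-24h. Its adjusted p ran from 0.0117 (DESeq2) to 0.131 (without SAP-6h replicate 2) over 17 alternatives, and it passed in 7 of them. Without single libraries the estimate ran from 2.68 (without Emo-24h replicate 2) to 4.08 (without Emo-6h replicate 1).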

How the results depend on the processing

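Of 1177 alternative values, 1086 were classed as kept, 53 as no longer passing, 8 as newly passing, 30 as moved and 0 as reversed. Kept means the same side of the threshold, a count within 1.5 times or a ratio within the larger group SD. A ratio difference smaller than that SD was not classed as reversed when its sign changed. In DEX-24h against SAP-24h, D over B chains ran from −0.03 to 0.62 without single libraries, and Cd74 over B and D chains from −0.09 to 0.29. Among members under 2-fold that had not passed, 126 of 1658 estimates changed sign. With the compared groups alone, called members were 1 for SAP-6h vs Con-6h, 0 for DEX-24h vs SAP-24h, 1 for SAP-24h vs SAP-6h and 0 for the interaction of emodin with time. With DESeq2 they were 1 for SAP-6h vs Sham-6h and 1 for the interaction of DEX with time. Without a filter SAP-24h vs SAP-6h gave 1, and without a fold limit Emo-24h vs Emo-6h gave 1 (RT1-DMa). Leaving out each library in turn gave 1 to 5 for DEX-24h vs SAP-24h, 0 to 1 for DEX-6h vs Sham-6h, 1 to 2 for SAP-24h vs SAP-6h and 0 to 1 for the interaction of emodin with time. The r of Ciita was 0.338 with RT1-DMa and 0.329 with RT1-DMb on log2 CPM, and ran from 0.36 to 0.492 and from 0.343 to 0.465 without single libraries. Without all DEX-24h libraries, an alternative chosen after seeing the data, it was 0.341 with RT1-Bb and 0.315 with RT1-DMb. The replicate block moved SAP-24h vs SAP-6h to 1 and the interaction of emodin with time to 0, and changed no other count. The replicate numbers did not pair the rats: deviations of same-numbered libraries had a median r of −0.00648 (−0.363 to 0.359, 135 pairs), and 8 of 30 libraries correlated best with their own number. The cause of these changes was not tested. The DM chains rest on 11 to 89 reads per library.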
